A study of Mus musculus with 37 samples.

Results

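The genes described here are 10 transcripts of the p53 stress response and of the Gadd45 family, measured in the left ventricle of mice after cardiac arrest and resuscitation. They were taken by gene name from an expression table of 56748 genes, and all 10 were found and passed the filter on low values used for the tests. The study compared 37 libraries in 9 groups of C57BL/6J mice, young adults of both sexes with the apex discarded. The labels number the libraries but do not name the animals, so the p-values measure the spread between these libraries. Naive mice (n = 5) were anaesthetised and nothing else. Adr mice, which the labels call sham, were anaesthetised and intubated and received saline and then adrenaline into the left ventricle. Arrest mice were likewise anaesthetised, and were intubated and ventilated as Adr mice were. Potassium chloride injected into the left ventricle put them into asystole, and they were resuscitated with adrenaline and chest compressions. Adr and Arrest ventricles came from 4 times, 0.5 d, 1 d, 3 d and 7 d, with n = 4 each, so the later Arrest groups hold mice that survived until then. Adr mice shared the intubation, the ventilation, the injection and the adrenaline with Arrest mice, and Naive mice had none of these.

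p53, encoded by Trp53, is a transcription factor that is normally kept low by the ubiquitin ligase MDM2 and is stabilised when DNA is damaged or a cell is otherwise stressed. It then raises the transcription of genes that stop the cell cycle, drive apoptosis or alter metabolism, and Mdm2 is itself one of them, which closes a feedback loop. Many of these genes have other inputs as well: Cdkn1a, Sesn1 and Trp53inp1 are also under the control of other transcription factors. The 3 Gadd45 genes encode small proteins that bind p21, proliferating cell nuclear antigen and the kinase MAP3K4, and they are induced by a range of stresses, with and without p53.

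Levels are given as deposited FPKM, fragments per kilobase of gene length, which allows genes to be compared per length. These values were already level between libraries, with a median-ratio factor of 1.013 in every library. Their scale between libraries is thus that of median ratios, not of the fragments counted on genes. Each library held 13.2 M to 30.2 M fragments on genes (median 14.9 M), and the members were read from 35 fragments at the lowest (Gadd45a and Gadd45b) to 26266 at the highest (Ccng1). The summed FPKM of 10 cardiomyocyte markers was 8972 to 18915 in 36 libraries, and all 10 were detected in every group. The remaining library, replicate 3 of Adr 3 d, stood apart: its cardiomyocyte markers summed to 3855, its monocyte and macrophage markers to 2601 against at most 1211 elsewhere, and mitochondrial genes took 9.36% of its fragments against 20.8% to 30.9% in the others. It was kept, and values without it are given where it moved a result of a member. These are bulk measurements of tissue, in which fewer cells of a type and less RNA per cell cannot be told apart.

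Promoter windows of 250 bases before the annotated start of transcription were read from the RefSeq annotation of GRCm38.p6, which held 11 windows for 9 of the 10 genes, Cdkn1a and Sesn1 having 2 each. They are shown for the members whose levels differed between groups, Cdkn1a and Gadd45g, and for Gadd45b, the relative of Gadd45g with which it shares promoter features, 5′ to 3′ on the strand of the gene, with the matched motifs in capitals. The first Cdkn1a window starts from an upstream start site that lies 2790 bases before the second, and is on the + strand at chr17:29090729-29090978.
Cdkn1a, upstream start: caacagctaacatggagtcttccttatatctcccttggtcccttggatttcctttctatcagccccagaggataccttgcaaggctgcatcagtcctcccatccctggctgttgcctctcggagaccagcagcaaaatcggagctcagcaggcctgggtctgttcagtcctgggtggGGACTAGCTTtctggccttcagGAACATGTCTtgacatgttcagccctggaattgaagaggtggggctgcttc
The second Cdkn1a window, + strand at chr17:29093519-29093768, held none of the motifs searched.
Cdkn1a, downstream start: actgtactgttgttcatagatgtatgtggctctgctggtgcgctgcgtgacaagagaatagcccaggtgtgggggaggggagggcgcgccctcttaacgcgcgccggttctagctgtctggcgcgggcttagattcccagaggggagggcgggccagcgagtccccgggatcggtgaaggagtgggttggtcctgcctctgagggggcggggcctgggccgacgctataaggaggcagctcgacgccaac
Gadd45g is on the + strand at chr13:51846425-51846674.
Gadd45g: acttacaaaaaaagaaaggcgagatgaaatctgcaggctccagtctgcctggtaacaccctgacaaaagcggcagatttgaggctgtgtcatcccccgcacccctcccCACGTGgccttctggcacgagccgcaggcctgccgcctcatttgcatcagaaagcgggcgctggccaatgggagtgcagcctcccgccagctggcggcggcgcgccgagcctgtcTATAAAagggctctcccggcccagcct
Gadd45b is on the + strand at chr10:80929841-80930090.
Gadd45b: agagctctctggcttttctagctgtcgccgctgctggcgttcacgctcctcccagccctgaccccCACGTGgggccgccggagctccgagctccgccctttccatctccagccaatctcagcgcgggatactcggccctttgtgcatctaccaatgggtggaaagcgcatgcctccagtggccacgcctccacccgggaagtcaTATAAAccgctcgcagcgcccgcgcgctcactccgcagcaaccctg
In the upstream Cdkn1a window the capitals mark matches to the p53 half-site, beginning 73 and 51 bases before the start. In both Gadd45 windows they mark an E-box (CACGTG), the letters bound by MYC and USF proteins, and a TATA box (TATAAA), which begins 27 bases before the Gadd45g start and 46 bases before that of Gadd45b. Both strands of the 250 bases and of the 50 bases after the start were searched. A p53 half-site was in 6 of the 11 member windows (Cdkn1a, Mdm2, Ccng1, Bax, Sesn1 and Gadd45a) against 8.36% of 32851 windows of all genes. The members were chosen as p53 targets and Gadd45 genes, so a higher share of p53 half-sites follows in part from that choice. An E-box was in 3 (Bax, Gadd45b and Gadd45g) against 7.15%, and a TATA box in 2 against 13.6%. The glucocorticoid receptor half-site (AGAACA, in 19.0% of all windows), the STAT site (TTCNNNGAA, 8.3%), the AP-1 site (TGANTCA, 7.81%) and the cAMP response element (TGACGTCA, 1.79%) were in none of the 11. The p53 half-site and AGAACA can share letters. A match describes the letters of these short windows and is not evidence of binding.

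**Figure D1:**
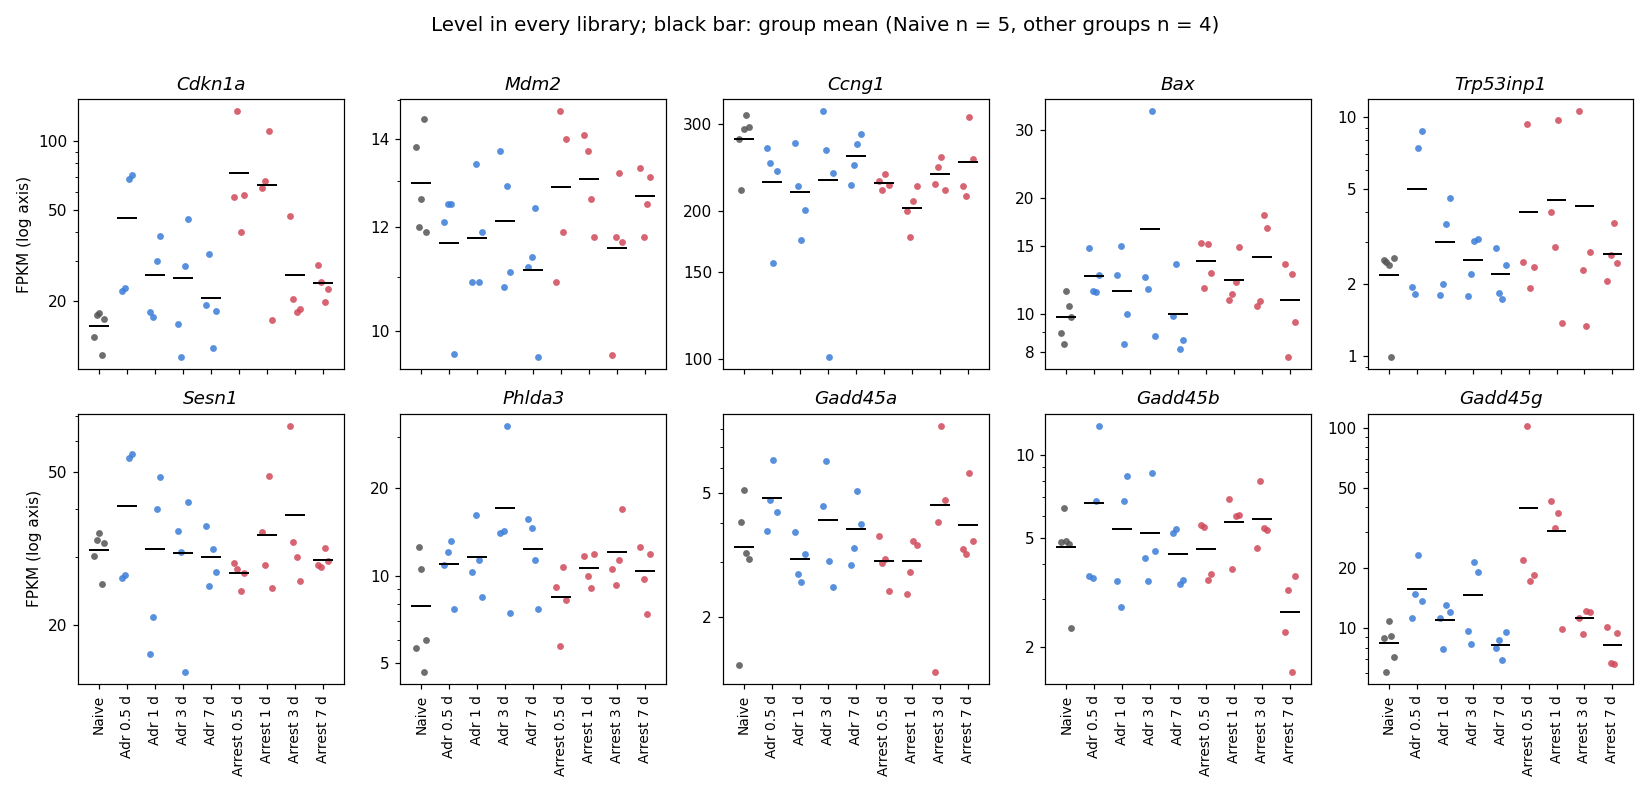
FPKM of the 10 genes in each of 37 libraries (points, log axis) by group, with the group mean as a black bar, Naive in grey, Adr in blue and Arrest in red. Cdkn1a and Gadd45g stand highest in Arrest 0.5 d and Arrest 1 d, where single libraries reach 135 and 102 FPKM, and Mdm2 spans a 1.54-fold range over all libraries.

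Of the 10 members, 2 rose after cardiac arrest: Cdkn1a, encoding the cyclin-dependent kinase inhibitor p21, and Gadd45g. Both were higher than Naive at 0.5 d and 1 d of Arrest, and neither was called at 3 d or 7 d. Mdm2, Ccng1, Bax, Trp53inp1, Sesn1, Phlda3, Gadd45a and Gadd45b passed the threshold in none of 16 comparisons between groups. The threshold was an adjusted p of at most 0.05 in limma's moderated test on log2(FPKM + 1), with Benjamini-Hochberg adjustment over 16530 genes tested. At 0.5 d of Arrest 2 of 10 members were called, against 3.21% of all genes tested, and at 1 d 2 of 10 against 7.11%. An F test over all 8 differences from Naive called the same 2 genes, Cdkn1a with an adjusted p of 0.0364 and Gadd45g with 0.00918, against 3.9% of all genes, while the other 8 members had adjusted p-values of 0.42 to 0.90.

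In the deposited table Cdkn1a (ENSMUSG00000023067) is on chromosome 17 at 29309950 to 29319701 and Gadd45g (ENSMUSG00000021453) on chromosome 13 at 52000714 to 52002504, in a genome build that the table does not name and that differs from GRCm38. Cdkn1a stood between 11.6 and 17.8 FPKM in the 5 Naive libraries (14, 17.4, 17.8, 11.6 and 16.8). In Arrest 0.5 d it was 57.2, 135, 39.9 and 57.9, every library above every Naive library. In Arrest 1 d it was 62.1, 66.7, 111 and 16.6, so that 3 libraries were far above Naive and replicate 4 lay within its range. The means were 72.5 ± 42.4 FPKM (SD, n = 4) at 0.5 d and 64.1 ± 38.5 (SD, n = 4) at 1 d against 15.5 ± 2.64 (SD, n = 5) in Naive. The log2 fold change was 2.01 ± 0.44 (SE, adjusted p = 0.0107) at 0.5 d and 1.72 ± 0.44 (SE, adjusted p = 0.0151) at 1 d. Without replicate 2, the library at 135 FPKM, the 0.5 d difference was 1.67 with an adjusted p of 0.0759. Without replicate 1 or replicate 3 the 1 d difference had an adjusted p of 0.0526 or 0.0965.

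Cdkn1a was also high in some Adr libraries. In Adr 0.5 d it was 22.2 and 22.9 FPKM in replicates 1 and 2 and 68.4 and 70.9 in replicates 3 and 4, all above Naive, with a log2 difference of 1.32 ± 0.44 (SE) that was not called (adjusted p = 0.168). In Adr 1 d the same split was seen at a lower level, with 17.9 and 17.0 in replicates 1 and 2 and 30.1 and 38.7 in replicates 3 and 4 (log2 difference 0.64, adjusted p = 0.520). In Adr 0.5 d 2 of 10 members, Cdkn1a and Gadd45g, had every library above Naive, against 3.36% of all genes, and no member was called by limma, against 0.188%. No member was called in Adr 1 d either, against 0.69% of all genes. The unadjusted p was 0.05 or less for 2 members (Cdkn1a and Gadd45g) in Adr 0.5 d and for 0 in Adr 1 d, and limma-voom called 0 in both.

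At 3 d Cdkn1a was 47.0 in 1 Arrest library (replicate 1) and 20.5, 18 and 18.4 in the others, and 45.5 in 1 Adr library (replicate 4) with 15.9, 11.4 and 28.5 in the rest. At 7 d the 4 Arrest libraries lay at 28.9, 24.3, 19.9 and 22.7 FPKM, still above every Naive library but by little, and the Adr libraries at 19.3, 32.3, 12.5 and 18.2. The log2 differences of Arrest from Naive were 0.60 at both 3 d and 7 d, with adjusted p-values of 0.577 and 0.9985. Cdkn1a was the 1 member with every library above Naive in Arrest 3 d, against 1.74% of all genes, and in Arrest 7 d, against 1.03%. In order of group means Cdkn1a ran from Arrest 0.5 d and Arrest 1 d through Adr 0.5 d, Arrest 3 d, Adr 1 d, Adr 3 d, Arrest 7 d and Adr 7 d to Naive. The libraries of every 2 neighbours in that order overlapped, as they did for all 10 genes.

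Gadd45g lay between 6.06 and 10.8 FPKM in Naive. In Arrest 0.5 d it was 21.8, 102, 17.2 and 18.5, all above Naive, with replicate 2, also the highest in Cdkn1a, far above the rest. In Arrest 1 d it was 43.0, 31.7, 37.7 and 9.95, with replicate 4 again at the Naive level. The means were 39.8 ± 41.4 FPKM (SD, n = 4) and 30.6 ± 14.5 (SD, n = 4) against 8.44 ± 1.84 (SD, n = 5). The log2 fold change was 1.70 ± 0.37 (SE, adjusted p = 0.0107) at 0.5 d and 1.59 ± 0.37 (SE, adjusted p = 0.00789) at 1 d. Without replicate 2 the 0.5 d difference was 1.11 with an adjusted p of 0.077, and no member was then called at 0.5 d. At 1 d the call held in all 10 repeats that left out 1 library.

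Gadd45g lay at 11.2, 9.32, 12.2 and 12.1 FPKM in Arrest 3 d and 10.1, 6.69, 6.61 and 9.46 in Arrest 7 d. It was the 1 member called against the late time point of its own arm, in comparisons whose means use no Naive library but whose spread was estimated over all 9 groups. The log2 difference was 1.73 ± 0.39 (SE, adjusted p = 0.0333) for Arrest 0.5 d over 7 d and 1.62 ± 0.39 (SE, adjusted p = 0.0251) for Arrest 1 d over 7 d, against 0.381% and 1.89% of all genes called. Each of these calls held in 3 of 9 repeats that left out 1 library, and neither was made by limma-voom on the recovered fragments (adjusted p = 0.0698 and 0.0752). Both were lost when only the compared groups were fitted (adjusted p = 0.163 and 0.0743), and the 0.5 d over 7 d call also with the replicate number as a block (adjusted p = 0.0541). In Adr 0.5 d Gadd45g was 11.2, 14.8, 23.3 and 13.7, all above Naive and above Adr 7 d (every library, 4.71% of all genes), with log2 differences of 0.80 and 0.81 that were not called.

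Several other early differences within an arm did not overlap. In Arrest 0.5 d both Cdkn1a and Gadd45g had every library above Arrest 7 d, against 5.27% of all genes, the Cdkn1a difference being 1.42 ± 0.46 (SE, adjusted p = 0.182). In Arrest 1 d this was so of Gadd45b (6.57% of all genes). No member was called in Adr 0.5 d or Adr 1 d against Adr 7 d, where 0.00605% and 0.0423% of all genes were. The unadjusted p there was 0.05 or less for 2 members (Cdkn1a and Gadd45g) and 0 members, and limma-voom called 0 in both.

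Direct comparison of Arrest with Adr at the same time asks what the arrest added to injection and adrenaline, and no member was called at any of the 4 times by limma or by limma-voom. Over all genes 0.0% were called at 0.5, 1 and 3 d and 0.00605% at 7 d, and the unadjusted p was 0.05 or less for 638, 1090, 888 and 416 genes. Among the members these were Gadd45g at 0.5 d and Cdkn1a and Gadd45g at 1 d. Gadd45g was higher in Arrest by 0.90 (95% interval 0.10 to 1.69, adjusted p = 1) at 0.5 d and by 1.23 (0.44 to 2.03, adjusted p = 0.502) at 1 d. Cdkn1a was higher by 0.70 (-0.25 to 1.65, adjusted p = 1) at 0.5 d and by 1.08 (0.13 to 2.03, adjusted p = 0.725) at 1 d. A difference between the arms in these genes was thus neither called nor bounded near 0 by these libraries. The Adr and Arrest comparisons with Naive share the 5 Naive libraries, and are given side by side for that reason. Gadd45a, at 3.76 to 6.36 FPKM in Adr 0.5 d and 2.43 to 3.64 in Arrest 0.5 d, was the 1 member that did not overlap between the arms, below in Arrest, against 1.91% of all genes (log2 difference -0.51, adjusted p = 1).

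**Figure D2:**
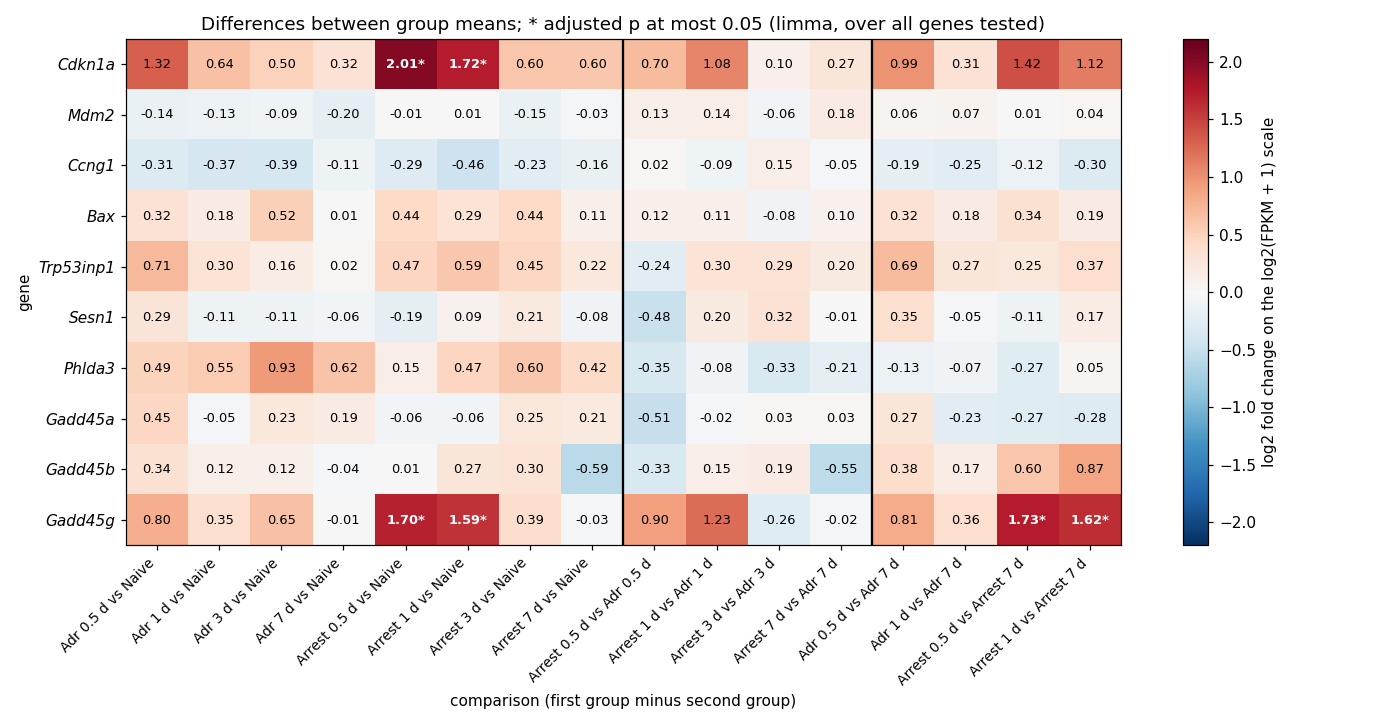
Log2 fold change on the log2(FPKM + 1) scale (colour and number) of each of the 10 genes (rows) in each of 16 comparisons (columns, first group minus second), with vertical lines between the comparisons with Naive, those of Arrest with Adr and those of early with late times. Asterisks mark an adjusted p of at most 0.05, which Cdkn1a reached at Arrest 0.5 d (2.01) and 1 d (1.72) and Gadd45g in 4 Arrest comparisons (1.59 to 1.73).

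The other cell cycle genes of the set did not follow Cdkn1a. Mdm2, the ligase of the feedback loop, was the steadiest member, between 9.56 and 14.7 FPKM over all 37 libraries, a 1.54-fold range. It stood at 12.9 ± 1.77 FPKM (SD, n = 4) in Arrest 0.5 d and 13 ± 1.04 in Arrest 1 d against 13 ± 1.14 in Naive. The log2 differences were -0.01 (95% interval -0.23 to 0.20) and 0.01 (-0.21 to 0.23), narrow intervals beside the changes of Cdkn1a. Ccng1, encoding cyclin G1, was the most abundant member at 101 to 318 FPKM, and its highest group mean was that of Naive (280 ± 35.2). It was lowest on average in Arrest 1 d (200, 177, 209 and 224 FPKM), where all but 1 of the Naive libraries (220 to 312) were higher than every Arrest library. That difference, -0.46 ± 0.20 (SE), was not called (adjusted p = 0.175), but was called with quantile normalization (-0.76, adjusted p = 0.0146), with sample quality weights (0.0431) and without Adr 3 d replicate 3 (0.0313).

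Among the genes of apoptosis and stress, Bax, a pore-forming protein of the mitochondrial outer membrane, lay at 8.39 to 11.5 FPKM in Naive and 11.7 to 15.3 in Arrest 0.5 d. The 2 groups did not overlap, yet the log2 difference of 0.44 ± 0.23 (SE) was not called (adjusted p = 0.315), and 3 of 10 members, Bax with Cdkn1a and Gadd45g, had every library above Naive in this comparison against 4.49% of all genes. The highest Bax value, 33.5 FPKM, was in Adr 3 d replicate 3, the library with few cardiomyocyte transcripts, and the others of that group were at 12.5, 11.6 and 8.8. Phlda3, encoding a PH-domain inhibitor of AKT signalling, was highest in the same library (32.7 FPKM, against 14, 14.2 and 7.44 in the others). Its difference from Naive in Adr 3 d, 0.93 ± 0.28 (SE), was not called (adjusted p = 0.180), nor were those in Adr 7 d (0.62) and Arrest 3 d (0.60), each with an unadjusted p below 0.05. Without replicate 3 the Adr 3 d differences were 0.57 for Phlda3 and 0.14 for Bax, against 0.93 and 0.52 with it. The monocyte and macrophage markers, which were high in that library, had r = 0.68 with Bax and 0.51 with Phlda3 as deviations from group means over the 37 libraries, and 0.26 and 0.16 without it. At 3 d and 7 d no member was called in either arm, against 0.0% of all genes in Adr 3 d, Adr 7 d and Arrest 7 d and 0.139% in Arrest 3 d. At an unadjusted p of at most 0.05, limma had 2 members in Adr 3 d and 1 in each of the other 3, and limma-voom called no member in any of the 4.

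Trp53inp1, encoding a nuclear and autophagy protein that cooperates with p53, had the lowest median of the 10 members over all libraries, 2.47 FPKM, and uneven groups. In Naive it was 0.988 in replicate 4 and 2.4 to 2.57 FPKM in the other 4. In Adr 0.5 d it was 7.44 and 8.74 in replicates 3 and 4 against 1.95 and 1.81 in replicates 1 and 2. In Arrest 0.5 d replicate 2 was at 9.33 against 1.93 to 2.47, and in Arrest 1 d replicate 3 was at 9.73 against 1.37 to 4.02. In Arrest 3 d replicate 1 was at 10.6 against 1.34 to 2.72. These were 5 of the libraries high in Cdkn1a. Of its variance 85.3% lay within groups, and no group difference was called (log2 difference at most 0.71, in Adr 0.5 d, adjusted p = 0.466). Sesn1, encoding sestrin 1, which restrains mTORC1 signalling, had a like pattern in Adr 0.5 d and Arrest 3 d, with 54.3 and 55.6 against 26.4 and 26.9 FPKM, and 65.8 against 26 to 32.9. Its Naive libraries lay at 25.6 to 34.6, and 87.0% of its variance lay within groups. Only 47.1% did so for Cdkn1a and 40.0% for Gadd45g, and 68.2% to 87.0% for the other 8.

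Of the Gadd45 family, then, Gadd45g was called and its relatives were not. Gadd45a, the classical p53 target of the family, was low throughout (1.34 to 8.16 FPKM), and its log2 differences from Naive at Arrest 0.5 d and 1 d were -0.06 (95% interval -0.60 to 0.48) and -0.06 (-0.61 to 0.48). Gadd45b, which is induced by cytokine signals, lay at 1.63 to 12.7 FPKM, with its highest library in Adr 0.5 d (replicate 4) and its 4 Arrest 7 d libraries at 2.27, 3.22, 1.63 and 3.63 against 2.34 to 6.38 in Naive. Its differences from Naive were 0.01 (-0.58 to 0.60) at Arrest 0.5 d and 0.27 (-0.32 to 0.87) at 1 d. Arrest 1 d, at 6.92, 3.83, 5.99 and 6.05, was above Arrest 7 d by 0.87 ± 0.31 (SE), which was not called (adjusted p = 0.140).

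Within groups, libraries above their group mean in Cdkn1a tended to be above it in Trp53inp1 and Sesn1 as well. The group levels did not run together in the same way: Arrest 0.5 d, highest in Cdkn1a, had the lowest Sesn1 mean of the 9 groups (27.2 FPKM), and 3 of its 4 libraries had Trp53inp1 at 1.93 to 2.47 FPKM, near the Naive level. Over the 37 libraries the correlation of log2(FPKM + 1) between Cdkn1a and Trp53inp1 was r = 0.75 (rho = 0.65), and r = 0.82 (rho = 0.79) once each library was taken as its deviation from its group mean. For Trp53inp1 and Sesn1 these deviations had r = 0.69 (rho = 0.72), for Cdkn1a and Gadd45g r = 0.71 (rho = 0.70) and for Cdkn1a and Sesn1 r = 0.59 (rho = 0.53). The last pair had r = 0.39 (rho = 0.25) when the group means were not taken out. Without the 2 libraries farthest from the median of the first gene, the r of the deviations of these 4 pairs, in the order given, was 0.79, 0.69, 0.63 and 0.55. Mdm2 did not take part (r = -0.11 with Cdkn1a). Among all 45 pairs of members 6 had r above 0.5 and 2 below -0.5, and 27 lay within 0.3 of 0. Bax and Phlda3 had r = 0.60, which fell to 0.38 without Adr 3 d replicate 3, and Bax and Sesn1 had r = -0.63, or -0.50 without it. These values are descriptions of libraries that share genes' normalization and sequencing, and no p is attached to them.

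**Figure D3:**
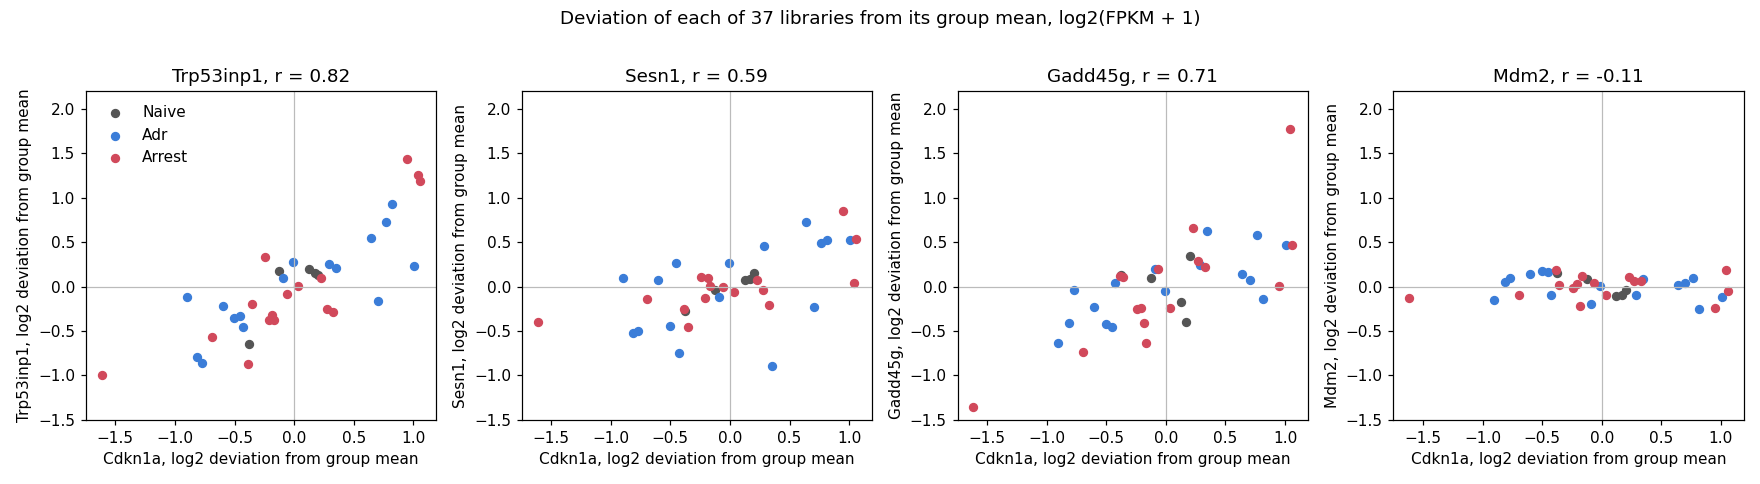
Deviation of each of 37 libraries from its group mean on the log2(FPKM + 1) scale, Cdkn1a on the x axis and Trp53inp1, Sesn1, Gadd45g or Mdm2 on the y axis, with Naive in grey, Adr in blue and Arrest in red. Trp53inp1 (r = 0.82), Gadd45g (r = 0.71) and Sesn1 (r = 0.59) rise with Cdkn1a, and Mdm2 stays flat (r = -0.11).

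The genes whose pattern over the 37 libraries was most like that of each member, among 11506 genes with a mean of at least 1 FPKM, differed from member to member. Nearest to Cdkn1a were Cebpd (r = 0.89), Mt1 (0.89) and Sox17 (0.88). Nearest to Trp53inp1 were Glul, Hipk1 and Fam107a (0.826, 0.815 and 0.814), and to Sesn1 Klf9, Retreg1 and Tsc22d3 (0.82, 0.82 and 0.81). For Gadd45g they were Picalm (0.85), Cdkn1a (0.84) and Eif4a1 (0.82). Ccng1 was nearest to Homer2, Oxct1 and Fsd2 (0.884, 0.857 and 0.854, or 0.826, 0.743 and 0.796 without Adr 3 d replicate 3), and Bax to Pfn1, Ssr2 and Coro1a (0.77, 0.77 and 0.76), the last 3 falling to 0.56 to 0.57 without Adr 3 d replicate 3. Phlda3 was nearest to Bmp1, Septin9 and Csrp1 (0.76, 0.73 and 0.73), or 0.628, 0.58 and 0.575 without that library. For Mdm2 (Hspa1a, Slc38a2 and Haus1), Gadd45a (Ppp1r37, Ndufa4l2 and Arl3) and Gadd45b (Sin3b, Wasf2 and Il6ra) no gene passed 0.69.

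Several of these neighbours, Cebpd, Mt1, Klf9 and Tsc22d3, are known to respond to glucocorticoids, and they belong to a list of 13 glucocorticoid-induced genes that holds no member. The list was chosen with earlier results of these data known. It holds these neighbours, so its r with Cdkn1a and Sesn1 in part repeats theirs. The mean standardised level of that list had, as deviations from group means, r = 0.89 with Cdkn1a, 0.84 with Trp53inp1 and 0.83 with Sesn1, and 0.94, 0.88 and 0.84 without Adr 3 d replicate 3. With Gadd45g it had r = 0.56 and with Mdm2 -0.18. Gadd45g had its highest value, 0.73, with a list of 18 immediate early genes, against 0.41 for Cdkn1a. A list of 35 other p53 target genes had r = 0.36 with Cdkn1a, 0.49 with Gadd45g and -0.73 with Ccng1. Ccng1 had r = 0.78 with the cardiomyocyte markers. Without Adr 3 d replicate 3 these 2 values of Ccng1 were -0.35 and 0.395, the latter below its 0.494 with the partners of p21 and GADD45 proteins.

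**Figure D4:**
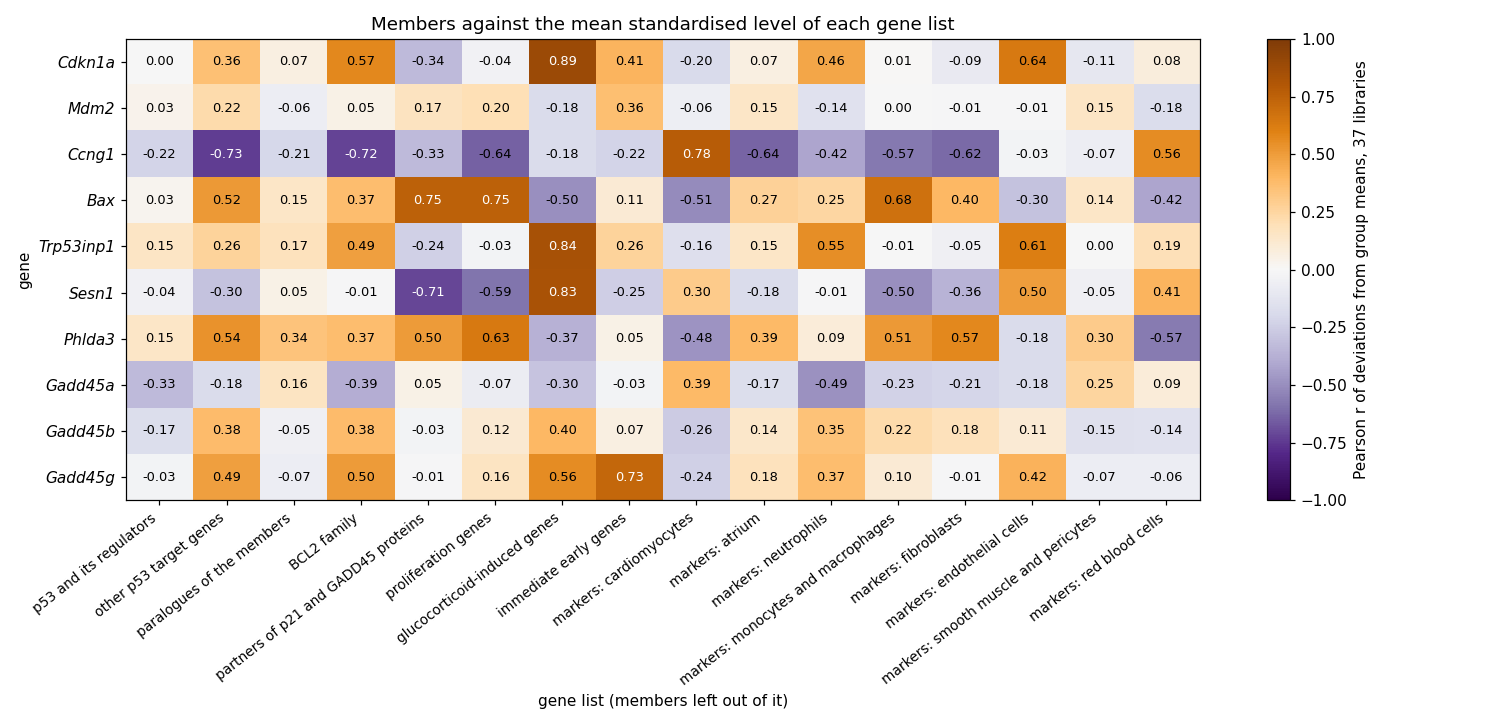
Pearson r (colour and number) between each of the 10 genes (rows) and the mean standardised log2(FPKM + 1) level of each of 16 gene lists (columns), over 37 libraries taken as deviations from their group means. Cdkn1a, Trp53inp1 and Sesn1 are highest with the glucocorticoid-induced genes (0.89, 0.84 and 0.83), Gadd45g with the immediate early genes (0.73) and Ccng1 with the cardiomyocyte markers (0.78, but 0.395 without Adr 3 d replicate 3).

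The summed level of the glucocorticoid-induced genes moved with the groups as well. It was 381 to 464 FPKM in Naive, 707 to 2691 in Arrest 0.5 d and 558 to 2586 in Arrest 1 d, and 382 to 491 in Arrest 7 d. In Adr 0.5 d it was 2016 and 1559 in replicates 3 and 4, the libraries high in Cdkn1a, and the lowest library was at 431. Of its 13 genes 4 rose in Arrest 0.5 d and 5 in Arrest 1 d, and none fell, with median log2 differences of 0.99 and 1.15 beside 0.03 over all genes in both. Mt1, a metal-binding metallothionein, rose by 2.76 and 2.86, Fkbp5, a co-chaperone of the glucocorticoid receptor, by 2.13 and 2.28, and Map3k6 by 1.66 and 1.90. With 1 library left out the Mt1 calls held in 10 of 10 repeats at both times, and those of Fkbp5 and Map3k6 in 4 of 10 at 0.5 d and 9 of 10 at 1 d. Mt1 weighed heavily in the sum, at 421 to 1594 FPKM in Arrest 0.5 d and 350 to 1556 in Arrest 1 d against 95.9 to 132 in Naive. Klf9 and Tsc22d3, the neighbours of Sesn1, were not called and overlapped Naive at Arrest 0.5 d. Klf9 lay at 31.4 to 49.8 FPKM against 33.7 to 45.5 in Naive, and Tsc22d3 at 38.3 to 55.6 against 30.2 to 44.3. The part of the glucocorticoid-induced genes in the Cdkn1a difference was not tested.

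Markers of other cells were read beside these genes. All 6 tested neutrophil markers were higher than Naive at both Arrest times, with median differences of 1.00 and 0.85, and limma called 0 of 6. All 8 listed neutrophil markers, tested or not, summed to at most 10.1 FPKM in Naive, 5.54 to 35.9 in Arrest 0.5 d and 6.52 to 20.6 in Arrest 1 d. Ly6g was at 0 in all of these libraries. The r of this list with Cdkn1a as deviations was 0.46. Monocyte and macrophage markers summed to 349 to 606 FPKM in Naive, 400 to 564 in Arrest 0.5 d and 342 to 552 in Arrest 1 d, with 0 of 10 called. Of 6 endothelial markers Kdr fell at both times (0.95 and 0.92) and Cdh5 at 1 d (0.42), while Fabp4 rose at 1 d by 1.05. Their sum was 283 to 320 FPKM in Naive, 307 to 527 in Arrest 0.5 d and 238 to 618 in Arrest 1 d, and their r with Cdkn1a was 0.64. The atrial markers summed to 13.8 to 32.4 FPKM in Naive, 16.8 to 73.2 in Arrest 0.5 d and 32.7 to 72.7 in Arrest 1 d, with 0 of 4 called. In other groups this sum went higher, up to 693 in Adr 1 d, 485 in Adr 3 d, 198 in Adr 7 d and 256 in Arrest 7 d. Its highest values in Adr 0.5 d and Arrest 3 d were 85.2 and 135. Median sums were 104 in Adr 1 d and 126 in Adr 7 d, against 27.0 in Naive. None of 10 cardiomyocyte, 7 fibroblast and 5 red blood cell markers was called at either time, and of 6 smooth muscle and pericyte markers Myh11 fell at 1 d. The part of any of these cells in the differences of Cdkn1a and Gadd45g was not tested.

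Trp53 itself, named here outside the rule used for the other genes, was at 3.495 ± 0.71 FPKM (SD, n = 4) in Arrest 0.5 d and 2.85 ± 0.52 in Arrest 1 d against 4.97 ± 3.11 (SD, n = 5) in Naive, with log2 differences of -0.26 and -0.48 that were not called. Of 15 tested genes among p53 and its regulators 1 fell at 0.5 d, and 1 rose and 2 fell at 1 d, where 3.21% and 7.11% of all genes were called. The gene at 0.5 d, named after its values were seen, was the kinase Atm (-0.54, adjusted p = 0.0453), whose call held in 3 of 10 repeats that left out 1 library and in 5 of 14 other alternatives. Ppm1d, a phosphatase that switches off p53 and its upstream kinases and is itself a p53 target, rose by 1.15 ± 0.25 (SE, adjusted p = 0.00487) at Arrest 1 d, from 2.10 ± 0.70 FPKM to 5.86 ± 1.39. It lay at 3.23 to 5.06 FPKM in Adr 0.5 d and 2.08 to 5.47 in Adr 1 d, against 1.36 to 3.19 in Naive, without a call. The kinases Hipk2 and Chek2, which activate p53 by phosphorylation, fell by 0.73 (adjusted p = 0.0156) and 0.78 (adjusted p = 0.0464) at 1 d. With 1 library left out the Hipk2 call held in 9 of 10 repeats and that of Chek2 in 3 of 10 (adjusted p up to 0.134). Hipk2 was also called in Adr 1 d against Naive (-0.76, adjusted p = 0.0489), a call that held in 1 of 10 such repeats. The median of the 15 genes was 0.00 at Arrest 0.5 d and -0.06 at Arrest 1 d.

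Of 34 tested genes in a list of other p53 targets, 1 rose and 1 fell at Arrest 0.5 d and 1 rose at 1 d, with medians of 0.12 and 0.14. The riser was Fas, the death receptor, at 20.04 ± 1.33 FPKM in Arrest 0.5 d and 23.4 ± 5.91 in Arrest 1 d against 7.77 ± 2.93 in Naive (log2 differences 1.32 and 1.501, adjusted p = 0.0108 and 0.00215). In Adr 0.5 d Fas was at 10.7, 10.1, 23.8 and 24.2 FPKM, and in Adr 1 d at 10.1, 11.6, 18.3 and 22.7. The Arrest calls of Fas held in all 10 repeats that left out 1 library at each time. Ephx1, an epoxide hydrolase, fell by 0.62 at 0.5 d, a call that held in 6 of 10 such repeats. Among 10 tested paralogues of the members only Sesn3, a relative of Sesn1 known as a FoxO target, was called in either Arrest comparison. It fell by 0.76 (adjusted p = 0.000996) and 0.68 (adjusted p = 0.0016), from 2.003 ± 0.29 to 0.76 ± 0.16 and 0.87 ± 0.16 FPKM. In Adr 0.5 d and 1 d Sesn3 lay at 1.02 to 1.55 FPKM, against 1.62 to 2.38 in Naive.

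In the BCL2 family, to which Bax belongs, 0 of 18 tested genes passed at 0.5 d and 2 rose at 1 d. Of the 18 differences 14 were positive at 0.5 d, with a median of 0.27, and 13 at 1 d, with a median of 0.17. The risers at 1 d were Bnip3, a mitophagy receptor, by 1.53 (adjusted p = 0.0244) and Bad, a BH3-only protein, by 0.64 (adjusted p = 0.0156). Their calls held in 7 and 9 of 10 repeats without 1 library. Bad was also called in Adr 1 d against Naive (0.81, adjusted p = 0.0177), a call that held in 9 of 10 such repeats. Among 19 tested partners of p21 and of the GADD45 proteins, 2 fell at each time and none rose. Ccnd2, encoding cyclin D2, fell by 0.99 and 1.27 (adjusted p = 0.00802 and 0.000516), from 12.1 ± 1.43 FPKM in Naive to 5.68 ± 1.399 and 4.48 ± 1.13. Map3k4, the kinase that GADD45 proteins activate, fell by 0.55 at 1 d (adjusted p = 0.0486), and Map2k6, a kinase below it, by 0.80 at 0.5 d (adjusted p = 0.0219). With 1 library left out the Map3k4 call held in 3 of 10 repeats (adjusted p up to 0.198) and that of Map2k6 in 7 of 10, against 9 and 10 of 10 for Ccnd2 at 0.5 d and 1 d. None of 12 tested proliferation genes was called in either comparison, and their median differences were -0.14 and -0.19. Of 17 tested immediate early genes 2 rose at 0.5 d and 4 at 1 d, with medians of 0.48 and 0.70, among them Junb (1.64 and 2.10) and Myc (1.46 and 1.48), and Ier2 at 1 d (1.27). At 0.5 d the calls of Junb and Myc held in 2 and 4 of 10 repeats without 1 library (adjusted p up to 0.218 and 0.241), and at 1 d those of Junb, Myc and Ier2 in 10, 6 and 5 of 10.

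**Figure D5:**
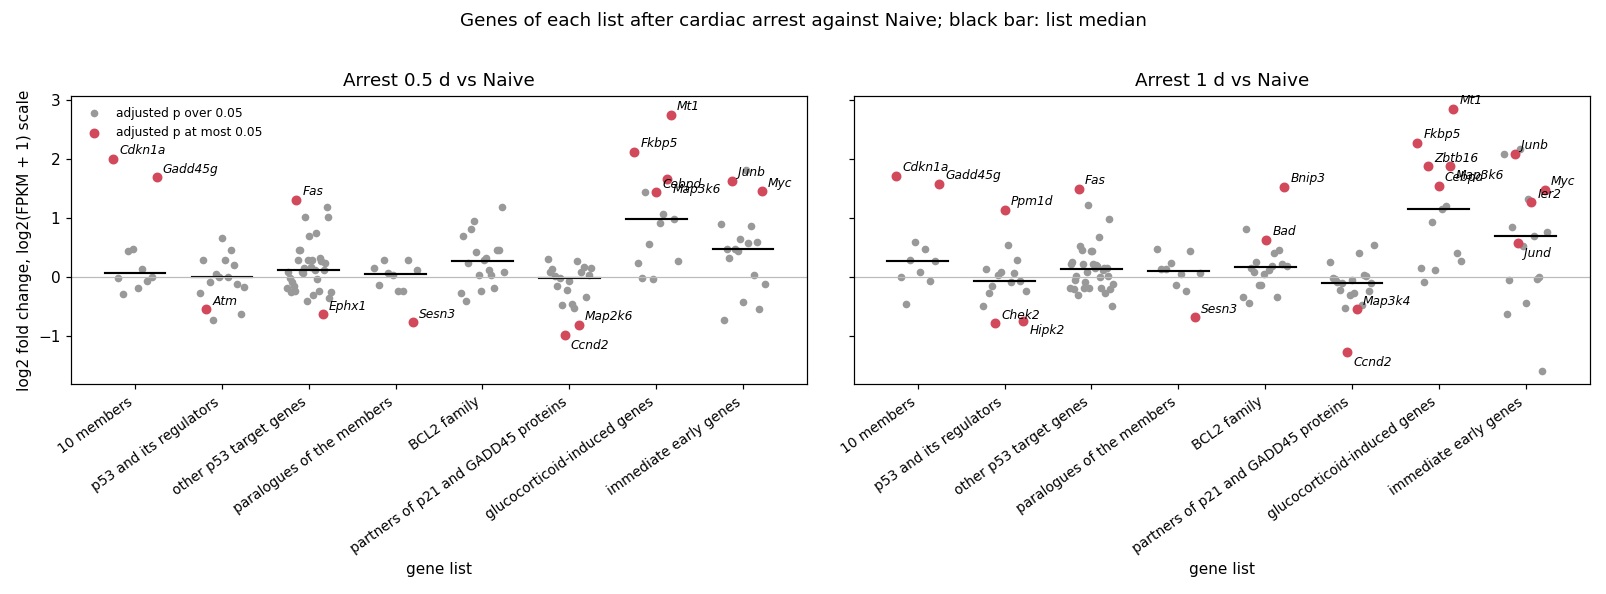
Log2 fold change against Naive on the log2(FPKM + 1) scale of every tested gene of each list at Arrest 0.5 d (left) and Arrest 1 d (right), with genes at an adjusted p of at most 0.05 in red and named, and the list median as a black bar. The medians of p53 and its regulators lie at 0.00 and -0.06, those of the other p53 targets at 0.12 and 0.14, those of the 10 members at 0.08 and 0.28 and those of the glucocorticoid-induced genes at 0.99 and 1.15.

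Set beside these lists, the 10 members had a median log2 difference of 0.08 at Arrest 0.5 d and 0.28 at Arrest 1 d, with 6 and 8 of 10 positive, where the medians over all genes were 0.03 in both. In Adr 0.5 d and Adr 1 d the medians were 0.40 and 0.15, with 8 and 6 of 10 positive. One label moved with the 1 d comparison: the sample numbers given in the descriptions run from 70 to 95 in Arrest 1 d and from 116 to 127 in Naive, so the number and the group cannot be told apart there. With that number as a covariate neither gene was called at 1 d (Cdkn1a 1.36, adjusted p = 0.378, and Gadd45g 1.17, adjusted p = 0.361), and 34 genes of all tested were, against 1176 without it. The Arrest 0.5 d numbers, 99 to 124, overlap those of Naive, and both genes were still called there (Cdkn1a 1.89, adjusted p = 0.0332).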

How the data were processed

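Total RNA from 37 mouse heart libraries was sequenced in paired ends, and per the study's methods the authors aligned the reads with HISAT2. The deposited values are FPKM, made by the authors from fragments counted per gene, in 1 table of 56748 genes. The counting tool, its strand setting and the genome build are not given in the sources used here, so a gene cannot be told apart from an antisense partner. FPKM times gene length came out whole, within 0.1 fragment, for 100% of values, and gave 13.2 M to 30.2 M fragments per library. Precision is limited by the number of libraries and, for low genes, by counting error.

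Libraries were rescaled by median ratios, a step that left them as deposited but for a common factor of 1.013. The log2(FPKM + 1) values were then fitted with limma 3.58.1 in R 4.3.3, with a mean-variance trend and all 9 groups in 1 model. Tests covered the 16530 genes that reached 0.5 FPKM in 4 or more libraries, with Benjamini-Hochberg adjustment within each comparison and a threshold of 0.05. The fit was tested on simulated data. A pseudocount of 1 understates the change of low genes.

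Groups came from the treatment labels. The paper reports leaving out 1 Adr sample of 3 d for poor quality, without naming it. All 4 Adr 3 d libraries of the table are kept here, and whether that sample is among them is not known. All 10 members were named. From other lists at most 3 genes were named, those called in Arrest 0.5 d or 1 d against Naive with the largest differences, and for each member the 3 genes of highest correlation among those with a mean of at least 1 FPKM. Marker genes were named only where they moved with a result. The members and the lists were chosen with earlier results of these data known. Some genes are in more than 1 list. Alternatives covered scaling, pseudocount, filter, trend, weights, covariates, gene length and leaving out libraries, and limma-voom on the recovered fragments was added after the data were seen.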

Additional observations from a re-analysis of the deposited data

Results flagged for a closer look

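In 8 of 90 groups of 4 or 5 libraries (10 genes in 9 groups) the highest or lowest library lay far from the others by Dixon's test, in which the gap to the nearest library is divided by the range of the group. Chance flags about 1 in 20 groups where values are independent and normally distributed. The test was run on FPKM without a log, and some libraries were flagged in more than 1 gene. The count of 8 therefore cannot be read against that rate. Replicate 2 of Arrest 0.5 d was high in Gadd45g, at 102 FPKM against 17.2 to 21.8, and in Trp53inp1, at 9.33 against 1.93 to 2.47. Replicate 1 of Arrest 3 d was high in Cdkn1a, at 47.0 FPKM against 18 to 20.5, and in Trp53inp1, at 10.6 against 1.34 to 2.72. Bax was at 33.5 FPKM in replicate 3 of Adr 3 d against 8.8 to 12.5. Trp53inp1 was low in replicate 4 of Naive, at 0.988 FPKM against 2.4 to 2.57. Mdm2 was low in replicate 4 of Adr 0.5 d, at 9.61 FPKM against 12.1 to 12.5. Gadd45a was high in replicate 3 of Arrest 7 d, at 5.78 FPKM against 3.19 to 3.5.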

How the results depend on the processing

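No direction reversed among the members called and the log2 differences recomputed. Over the 5 results with a member called, the count of members called was recomputed 69 times under alternatives other than leaving out a library. Of these counts 51 stayed within 1.5 times the starting count of 1 or 2, 17 were lower, so that fewer members were called, and 1 was higher. The alternative without rescaling is among the 69 and could hardly move a result, since the factor was 1.013 in all libraries. The other 12 comparisons began with no member called and say little about stability. For Arrest 0.5 d against Naive 2 members were called, 1 when only the compared groups were fitted, and 0 to 2 when 1 library was left out, 0 being without replicate 2. For Arrest 1 d against Naive 2 were called, 0 with only the compared groups or with the sample number as a covariate, and 1 to 3 with 1 library left out, 1 being without replicate 1 or 3. For Arrest 0.5 d against 7 d 1 was called, and 0 with no filter, with only the compared groups, with the length trend removed, by limma-voom or with the replicate block, and 0 to 1 with 1 library left out. For Arrest 1 d against 7 d 1 was called, 0 with no filter, with only the compared groups, with the sample number or by limma-voom, 2 with sample quality weights, and 0 to 2 with 1 library left out. Over all 9 groups the F test called 2, and 1 with no filter, the sample number, the length trend removed, limma-voom or the replicate block, and 1 to 2 with 1 library left out. The cause was not tested.

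The replicate numbers did not pair the libraries: over 144 pairs of libraries with the same number in different groups the median correlation of their deviations was 0.0017, and 11 were over 0.1. With the replicate block Cdkn1a stayed called in Arrest 0.5 d against Naive (log2 difference 2.04, adjusted p = 0.0281). Depth limited Gadd45a and Gadd45b, which had 35 fragments in their lowest libraries.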
